A study of Mus musculus with 9 samples.

Results

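The 8 genes described here encode muscle actins (Acta1, Actc1 and Acta2) and muscle myosin light chains (Mylpf, Myl2, Myl1, Myl3 and Myl4). They are the rows of the deposited expression table whose gene symbol equals one of these names, and all 8 of 8 symbols were found among the table's 23231 genes. Actin polymerises into the thin filament, along which the myosin heads of the thick filament pull. Each myosin heavy chain carries one regulatory and one essential light chain wrapped around its lever arm, which stiffen the lever and tune how fast and how strongly the head works. Mammals switch between family members with fibre type and development: fast fibres use Acta1, Mylpf and Myl1, slow fibres use Myl2 and Myl3 with the same actin, and embryonic muscle also uses Actc1 and Myl4.

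RNA had been sequenced from whole tibialis anterior muscles, a hindlimb muscle made mostly of fast fibres, of C57BL/6 mice aged 6 months. All muscles had received an siRNA by electroporation, which drives nucleic acids into muscle fibres with electric pulses. The 9 libraries fall into 3 groups of 3: an siRNA against Ubr4 called construct 7, a second siRNA against Ubr4 called construct 5, and a non-targeting siRNA that serves as the control. Ubr4 encodes a large E3 ubiquitin ligase of the N-degron pathway, and the series concerns ubiquitin ligases and myofibre size. The labels give no other genotype or allele, and they do not say which fibres took up the siRNA. They also do not say that the libraries of a group came from separate animals, so p-values measure only the spread between these libraries, which may be technical. Ubr4 stood at 2.63 ± 0.412 FPKM with construct 7, at 3.38 ± 0.568 with construct 5 and at 9.06 ± 1.22 in controls (SD, n = 3 each), and every siRNA library lay below every control library. FPKM is fragments per kilobase of gene, scaled to the depth of the library. Depths recovered from the steps between low values ran from 29312121 to 45563543 reads, at which 3 reads on a 1 kilobase transcript correspond to 0.0658 to 0.102 FPKM. That floor covers counting error only. Libraries of the same group correlated at 0.985 to 0.993.

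Skeletal and cardiac muscle actin genes are classic targets of serum response factor, which binds the CArG box, so the promoters that hold this element are shown. The RefSeq promoter table for GRCm38.p6 gives 300 bases around each start, 250 before it and 50 after it, and 9 such windows matched the 8 genes (Myl2 has 2). Both Myl2 windows, the later ending at chr5:122093238, lie upstream of the GENCODE M21 gene, which begins at 122100951 on the plus strand. Motif matches for Myl2 therefore describe those windows and not the sequence next to that gene's start. The windows of Actc1, Mylpf, Myl1 and Myl3 lie wholly inside the GENCODE M21 gene, so their start is not its outermost one. For Myl3 the outermost start is 110741861 and for Mylpf 127208890, both on the plus strand and upstream of the window. An exact CArG box was found on either strand in 3 windows, those of Acta1 (chr8:123894726-123895025, minus strand), Actc1 (chr2:114052826-114053125, minus strand) and Myl3 (chr9:110763428-110763727, plus strand). Capitals mark the CArG box, and the windows read 5′ to 3′ on the gene's own strand.
Acta1: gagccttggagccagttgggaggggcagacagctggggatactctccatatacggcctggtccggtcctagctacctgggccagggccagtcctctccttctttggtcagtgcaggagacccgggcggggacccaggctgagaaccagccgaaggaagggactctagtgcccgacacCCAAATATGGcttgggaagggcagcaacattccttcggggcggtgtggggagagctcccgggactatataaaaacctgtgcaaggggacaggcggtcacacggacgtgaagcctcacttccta
Actc1: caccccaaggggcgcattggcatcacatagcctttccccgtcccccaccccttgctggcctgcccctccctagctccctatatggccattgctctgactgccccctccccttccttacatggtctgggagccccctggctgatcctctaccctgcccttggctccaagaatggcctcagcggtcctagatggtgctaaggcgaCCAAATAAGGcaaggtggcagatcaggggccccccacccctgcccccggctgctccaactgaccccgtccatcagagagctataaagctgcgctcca
Myl3: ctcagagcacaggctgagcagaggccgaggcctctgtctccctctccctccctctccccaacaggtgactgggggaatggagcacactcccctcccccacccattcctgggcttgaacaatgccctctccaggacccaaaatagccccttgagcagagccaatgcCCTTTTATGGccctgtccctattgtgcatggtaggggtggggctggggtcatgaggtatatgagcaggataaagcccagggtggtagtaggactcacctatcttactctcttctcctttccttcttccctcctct
The box begins 73 bases before the start in Acta1, 47 bases before it in Actc1 and 85 bases before it in Myl3. Among all 32851 windows of the table, 1.63% held an exact CArG box. The TATAAA sequence was on the gene's own strand in Acta1 and Actc1 and only on the opposite strand in Myl1 and Myl2. On either strand it was in 13.6% of all windows. The E-box CANNTG was in windows of 7 of the 8 genes, all but Myl4, and in 72.3% of all windows. A MEF2 box was in none of the 9 and in 3.19% of all windows. No CArG box overlapped a match of another motif. A match describes these letters only, and the windows without one say nothing of the factor.

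In this muscle the fast members Acta1, Mylpf and Myl1 were the most abundant of the 8, followed by Actc1, and the slow Myl2 and Myl3, the embryonic Myl4 and the smooth muscle Acta2 were far lower. Averaged over the 9 libraries, Acta1, the skeletal muscle alpha-actin, ranked 3 of 23231 genes by FPKM. Mylpf, the fast regulatory light chain, ranked 9, and Myl1, the fast essential light chain, ranked 19. Actc1, cardiac alpha-actin and the main sarcomeric actin of heart and embryonic muscle, ranked 62. Myl3, the slow and ventricular essential light chain, ranked 1184 and Acta2, smooth muscle alpha-actin, ranked 1537. Myl4, the atrial and embryonic essential light chain, ranked 4388 and Myl2, the slow and ventricular regulatory light chain, ranked 8685. The order Acta1, Mylpf, Myl1, Actc1 held in each of the 9 libraries. Myl3 lay above Acta2 in 7 of 9 libraries, so these neighbours are not separated, and Myl4 lay above Myl2 in 8 of 9. Levels in FPKM compare genes only as well as the gene lengths behind them. The exon length of Myl4 in GENCODE M21 (4637 bases) is 4.92 times that of its longest coding transcript (943 bases), and this ratio is 2.19 for Myl2, 2.18 for Myl3, 1.92 for Myl1, 1.39 for Mylpf and 1.06 to 1.10 for the 3 actins. The places of Myl3, Myl4 and Myl2 in this order, and the light chain ratios and shares below as levels, can therefore depend on the length used.

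**Figure D1:**
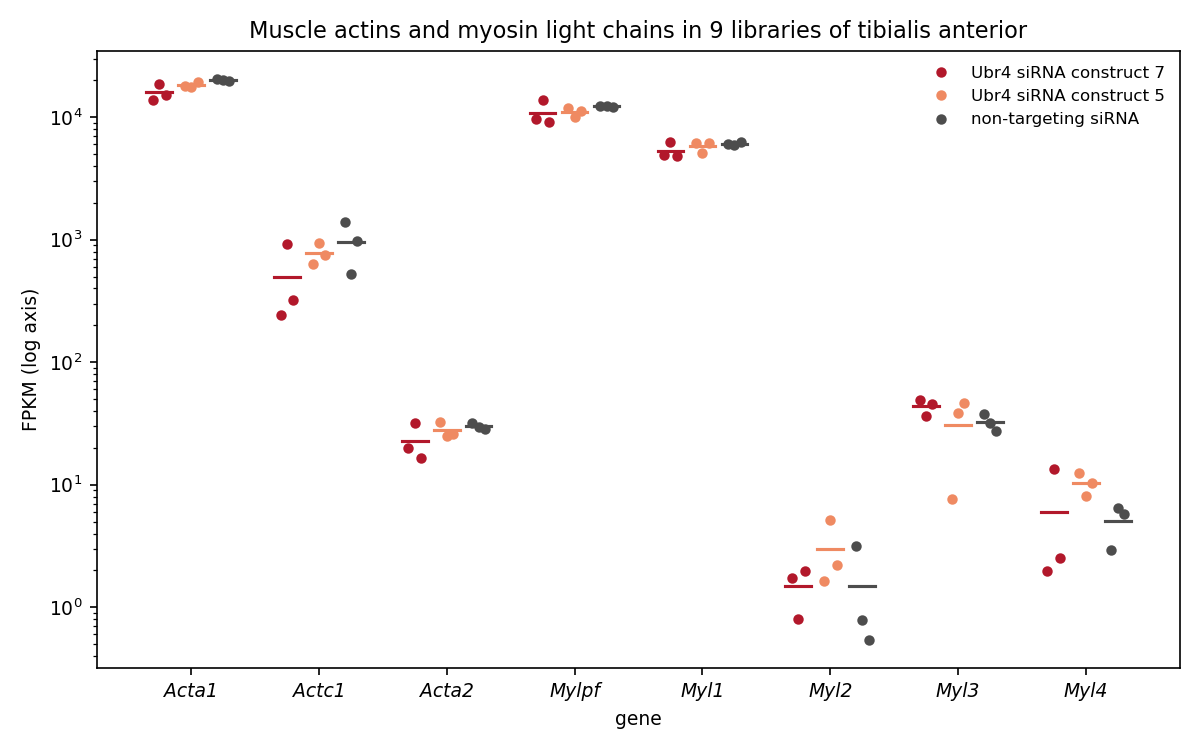
FPKM of the 8 genes on a log axis, with 1 point per library and a bar at the group mean, for construct 7, construct 5 and non-targeting control muscles (3 libraries each). Acta1, Mylpf and Myl1 lie between 4816 and 20568 FPKM in all 9 libraries, and Myl2 lies between 0.543 and 5.15 FPKM.

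The 8 genes together made up 6.50 ± 1.29% of all FPKM with construct 7, 7.35 ± 0.456% with construct 5 and 7.71 ± 0.170% in controls (SD, n = 3 each). Acta1, Mylpf and Myl1 supplied between 96.4% and 98.9% of that sum in every library. In absolute level the sum was 32700 ± 6191 FPKM with construct 7, 36040 ± 1991 with construct 5 and 39461 ± 785 in controls. The control libraries were close to each other and the construct 7 libraries were spread most. In bulk tissue, fewer cells of a type and less RNA per cell cannot be told apart. All 8 genes had a mean of at least 1 FPKM over the 9 libraries and so entered the test with 10794 genes in all.

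The comparison of each siRNA with the control asked whether any of these genes differed between Ubr4-targeted and control muscle. Acta1 (ENSMUSG00000031972) read 13882, 18793 and 15141 FPKM in construct 7 replicates 1 to 3 and 18067, 17610 and 19330 FPKM in construct 5 replicates 1 to 3. It read 20568, 19940 and 19902 FPKM in the controls. All 6 siRNA libraries lay below all 3 control libraries, with construct 7 replicates 1 and 3 lowest. The means were 15939 ± 2551 FPKM with construct 7, 18335 ± 891 with construct 5 and 20137 ± 374 in controls (SD, n = 3 each), or 79.2% of the control mean with construct 7 and 91.1% with construct 5. Groups that did not overlap, with the siRNA lower, were found for 6.26% of the 10794 tested genes with construct 7, for 5.19% with construct 5 and for 1.45% with all 6 siRNA libraries below the controls. Both comparisons use the same 3 control libraries. limma gave a difference of -0.35 on the log2(FPKM + 1) scale with construct 7 (SE 0.121, 95% interval -0.62 to -0.08, unadjusted p = 0.0171, Benjamini-Hochberg adjusted p = 0.406). With construct 5 it gave -0.14 (SE 0.121, adjusted p = 0.447), and for the mean of both constructs -0.24 (SE 0.105, unadjusted p = 0.0444, adjusted p = 0.249). None of these passed the threshold of 0.05 on the adjusted p.

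Actc1 (ENSMUSG00000068614) was the most variable of the abundant members. It read 241, 928 and 321 FPKM with construct 7, 631, 945 and 753 FPKM with construct 5, and 1388, 527 and 977 FPKM in controls. Construct 7 replicates 1 and 3 lay below every other library, while construct 7 replicate 2 sat among the controls, so the groups overlapped. The group means were 497 ± 376 FPKM with construct 7, 776 ± 158 with construct 5 and 964 ± 431 in controls (SD, n = 3 each), 51.5% and 80.5% of the control mean. limma put the construct 7 difference at -1.10 (SE 0.485, 95% interval -2.19 to -0.01, unadjusted p = 0.0477, adjusted p = 0.521) and the construct 5 difference at -0.22 (SE 0.485, adjusted p = 0.766). These FPKM correspond to whole reads (within 0.1 reads) at an exon length of 1618 bases, between 12440 and 69633 reads per library. The same was found in all 9 libraries for Myl2 and Myl4, but for Acta2 in 1 of 9 and for Myl3 in 2 of 9, so the exon lengths used here do not match the table for Acta2 and Myl3 and no reads are given for them. For Acta1, Mylpf and Myl1 the rounding of the table is too coarse to tell.

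Acta2 (ENSMUSG00000035783), which is made mostly by vascular smooth muscle in this tissue, read 20.0, 31.9 and 16.4 FPKM with construct 7. It read 32.5, 24.8 and 25.9 FPKM with construct 5, and 31.7, 29.5 and 28.5 FPKM in controls. Construct 7 replicates 1 and 3 were again the lowest of the 9 and replicate 2 was among the highest, so neither construct was separated from the controls. The limma difference was -0.43 with construct 7 (SE 0.203, adjusted p = 0.555) and -0.11 with construct 5 (SE 0.203, adjusted p = 0.715). The 16 smooth muscle and pericyte marker genes on the list used here were summed. The sums were 236 to 264 FPKM with construct 7, 232 to 257 with construct 5 and 239 to 261 in controls. None of the list's 12 tested genes passed limma's test in either comparison. Of all tested genes 0.0556% passed with construct 7 and 5.27% with construct 5. At an unadjusted p under 0.05 were 0 of the 12, against 9.47% and 31.9% of all tested genes. The most abundant gene of the list, Rgs5, averaged 75.1 FPKM with construct 7, 73.6 with construct 5 and 76.95 in controls. The list's smooth muscle genes Tagln and Myh11 averaged 11.7 and 4.48 FPKM with construct 7, 13.9 and 3.93 with construct 5, and 15.4 and 4.61 in controls. In construct 7 replicates 1 to 3 Tagln read 12.2, 15.0 and 8.11 FPKM, the same order as Acta2. Myh11 read 5.06, 5.04 and 3.35 FPKM there.

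The fast light chains tracked each other. Mylpf (ENSMUSG00000030672) read 9622, 13777 and 9147 FPKM with construct 7, 11928, 10023 and 11153 FPKM with construct 5, and 12256, 12287 and 12129 FPKM in controls. All 3 construct 5 libraries lay just below the 3 controls, whereas construct 7 replicate 2 was the highest of the 9 and the other 2 of that group were the lowest. The means were 88.7% of the control with construct 7 and 90.3% with construct 5, and limma gave -0.20 (SE 0.152, adjusted p = 0.740) and -0.15 (SE 0.152, adjusted p = 0.504). Myl1 (ENSMUSG00000061816) read 4954, 6258 and 4816 FPKM with construct 7, 6197, 5114 and 6155 FPKM with construct 5, and 6013, 5923 and 6263 FPKM in controls. Its groups overlapped for both constructs, and limma gave -0.19 with construct 7 (SE 0.123, adjusted p = 0.679) and -0.06 with construct 5 (SE 0.123, adjusted p = 0.734). The ratio of Mylpf to Myl1 within a library was 2.01 ± 0.164 with construct 7, 1.90 ± 0.0771 with construct 5 and 2.02 ± 0.0714 in controls (SD, n = 3 each). That ratio does not depend on how libraries are scaled to each other.

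**Figure D2:**
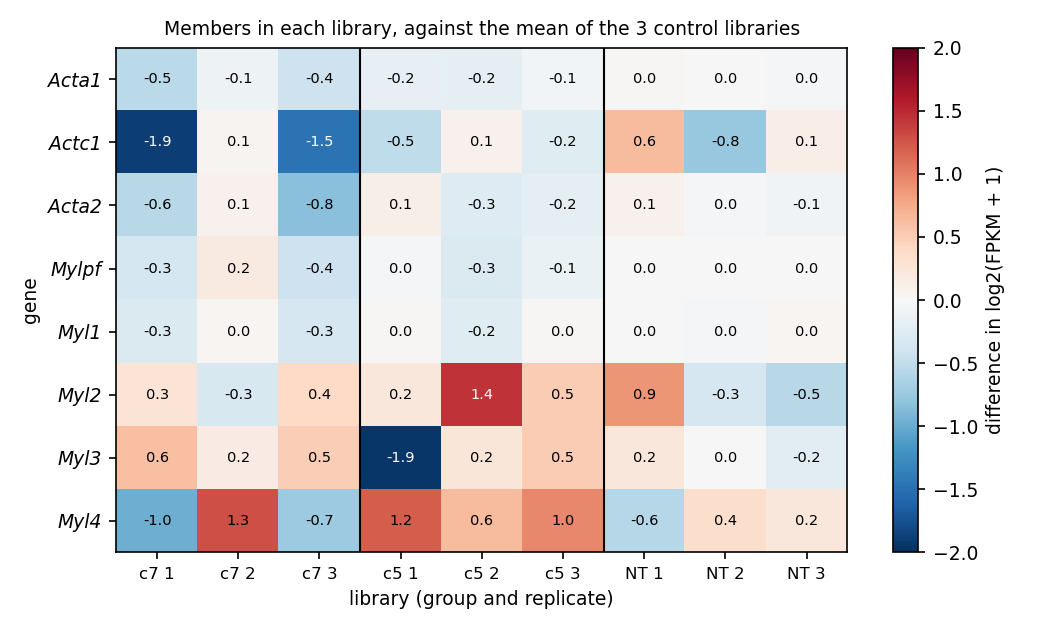
Each cell gives the difference in log2(FPKM + 1) between a library and the mean of the 3 control libraries, for construct 7 (c7), construct 5 (c5) and non-targeting (NT) replicates 1 to 3. Actc1 in c7 replicate 1 and Myl3 in c5 replicate 1 are the lowest cells, near -1.89 and -1.94, and Myl4 is above the control mean in c7 replicate 2 and all c5 libraries.

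The slow light chains were close to absent for Myl2 and low for Myl3. Myl2 (ENSMUSG00000013936) read 1.74, 0.800 and 1.98 FPKM with construct 7, 1.64, 5.15 and 2.21 FPKM with construct 5, and 3.15, 0.793 and 0.543 FPKM in controls. Construct 5 replicate 2 held the highest value, and the controls held both the lowest and the second highest, so the groups overlapped. At an exon length of 1950 bases these are 33 to 458 whole reads per library (within 0.1 reads). limma gave 0.12 with construct 7 (SE 0.408, adjusted p = 0.968) and 0.73 with construct 5 (SE 0.408, adjusted p = 0.240). Myl3 (ENSMUSG00000059741) read 49.3, 36.2 and 45.5 FPKM with construct 7, 7.64, 38.2 and 46.3 FPKM with construct 5, and 37.8, 32.2 and 27.4 FPKM in controls. Construct 5 replicate 1 held less Myl3 than any other library and the other 2 of its group lay above the highest control, so that single library sets the group's mean of 30.7 ± 20.4 FPKM. limma gave 0.42 with construct 7 (SE 0.524, adjusted p = 0.864) and -0.40 with construct 5 (SE 0.524, adjusted p = 0.615), and the construct 5 difference became 0.38 (adjusted p = 0.260) without construct 5 replicate 1. That library was the lowest of the 9 for 7.79% of all tested genes.

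Myl4 (ENSMUSG00000061086) was the one member with all construct 5 libraries above the controls. It read 1.97, 13.3 and 2.54 FPKM with construct 7, 12.5, 8.05 and 10.3 FPKM with construct 5, and 2.93, 6.47 and 5.82 FPKM in controls. Construct 7 replicate 2 was the highest of the 9 and the other 2 of its group were the lowest. The means were 5.95 ± 6.40 FPKM with construct 7, 10.3 ± 2.25 with construct 5 and 5.07 ± 1.89 in controls (SD, n = 3 each), with construct 5 at 203% of the control mean. Higher values without overlap were found for 33.0% of all tested genes with construct 5, so Myl4 lies with a large share of the genes. limma gave 0.93 with construct 5 (SE 0.520, 95% interval -0.24 to 2.10, unadjusted p = 0.105, adjusted p = 0.238) and -0.14 with construct 7 (SE 0.520, adjusted p = 0.971). At an exon length of 4637 bases these are 291 to 2376 reads per library. An antisense gene of GENCODE M21, Gm11665 (mean 1.07 FPKM), overlaps Myl4, and because no source gives the strandedness of these libraries, their reads cannot be told apart.

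No member passed the test in any of the 4 comparisons made with limma. That holds for construct 7 against control, where 0.0556% of all tested genes passed, and for construct 5 against control, where 5.27% passed. It also holds for the mean of both constructs against control, where 0.00926% passed, and for construct 7 against construct 5, where 1.22% passed. An unadjusted p under 0.05 was reached by 2 of 8 members with construct 7 (Acta1 and Actc1), 0 of 8 with construct 5, 1 of 8 for the mean of both (Acta1) and 0 of 8 between constructs, against 9.47%, 31.9%, 19.1% and 23.1% of all tested genes. The 8 differences had a median of -0.20 with construct 7 and -0.13 with construct 5, beside 0.02 and 0.13 over all tested genes. With construct 5 the 95% intervals were -0.41 to 0.14 for Acta1 and -0.49 to 0.19 for Mylpf, and with construct 7 that of Mylpf was -0.54 to 0.14.

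**Figure D3:**
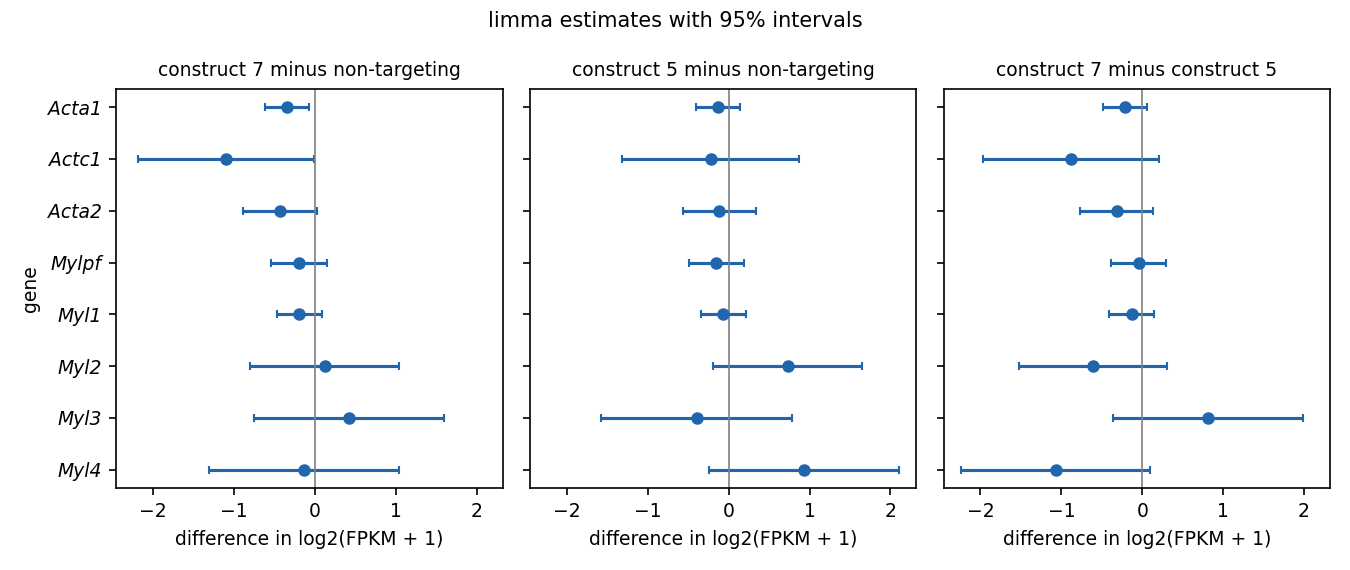
limma estimates (points) and 95% intervals (bars) of the difference in log2(FPKM + 1) for the 8 genes, with construct 7 minus control, construct 5 minus control and construct 7 minus construct 5. The intervals of Acta1 and Actc1 with construct 7 lie below 0, and no adjusted p is under 0.05.

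Scaling matters for construct 5, because the median difference of all tested genes was 0.13 on the deposited FPKM and -0.02 after median-ratio scaling. That scaling divides each library by the median ratio of its genes to their geometric mean over the 9 libraries. On the median-ratio scale Acta1, Acta2, Mylpf and Myl1 all lay below the controls in every construct 5 library, 4 of 8 members against 19.2% of all tested genes. With values scaled to equal totals 0 of 8 did, against 2.71%. Myl4 lay above the controls in every construct 5 library on both scales, as did 10.9% of all tested genes on the median-ratio scale and 38.7% with equal totals. The Acta1 difference with construct 5 was -0.32 on the median-ratio scale (SE 0.131, adjusted p = 0.184), that of Mylpf -0.34 (SE 0.153, adjusted p = 0.225) and that of Myl4 0.77 (SE 0.521, adjusted p = 0.405). Genes called with construct 5 numbered 504 higher and 65 lower on the deposited scale and 28 higher and 169 lower on the median-ratio scale. With construct 7 Acta1 lay below all controls on each of the 3 scales, as did 7.98% of all tested genes on the median-ratio scale and 4.47% with equal totals, and the Acta1 difference after median-ratio scaling was -0.37 (SE 0.131, adjusted p = 0.406). With equal totals Myl3 lay above all controls in every construct 7 library, as did 10.8% of all tested genes, whereas on the other 2 scales it overlapped them.

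Within-library shares avoid that choice. Actc1 as a share of Acta1 and Actc1 was 1.71%, 4.71% and 2.07% with construct 7, 3.37%, 5.09% and 3.75% with construct 5, and 6.32%, 2.57% and 4.68% in controls. The groups overlapped. Myl4 as a share of the 3 essential chains was 0.0394%, 0.211% and 0.0522% with construct 7, 0.202%, 0.156% and 0.166% with construct 5, and 0.0484%, 0.109% and 0.0924% in controls, and every construct 5 library lay above every control. Myl3 as a share of Myl1 and Myl3 averaged 0.832 ± 0.224% with construct 7, 0.537 ± 0.359% with construct 5 and 0.533 ± 0.0951% in controls (SD, n = 3 each). Myl2 averaged 0.0152% of Myl2 and Mylpf with construct 7, 0.0283% with construct 5 and 0.0122% in controls. No p is given for these shares, since the genes were chosen with earlier results known.

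**Figure D4:**
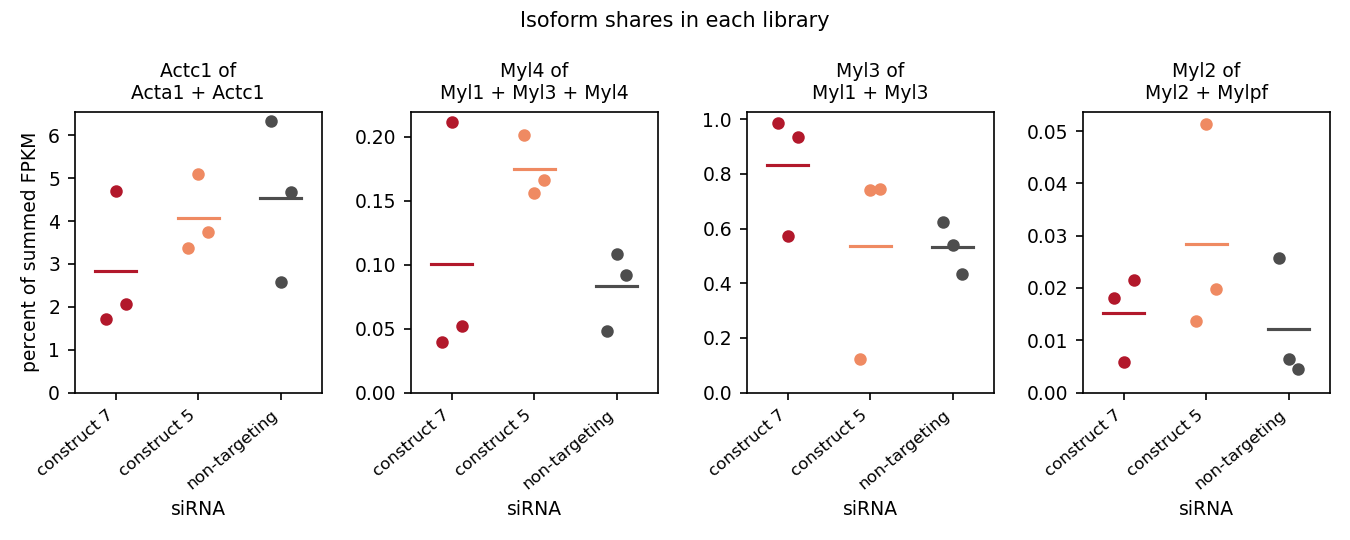
Share of the slow, embryonic or cardiac family member among the named family members in each library, in percent, for construct 7, construct 5 and control muscles (points, with the group mean as a bar). The Myl4 share lies between 0.156% and 0.202% with construct 5 and between 0.0484% and 0.109% in controls.

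On the deposited scale the constructs overlapped each other in every member, whereas they did not overlap in 25.4% of all tested genes. Between construct 7 and construct 5 the Myl4 difference was -1.07 (SE 0.520, unadjusted p = 0.0687, adjusted p = 0.249), that of Actc1 was -0.88 (SE 0.485, adjusted p = 0.299) and that of Myl3 was 0.81 (SE 0.524, adjusted p = 0.367). Myl2 stood at -0.61 (SE 0.408, adjusted p = 0.383) and Acta1 at -0.21 (SE 0.121, adjusted p = 0.312). After median-ratio scaling Myl3 stood at 0.97, Myl4 at -0.93 and Actc1 at -0.72, so which member differs most depends on the scaling. Without construct 7 replicate 2 the Myl4 difference was -1.78 (adjusted p = 0.0189) and that of Acta2 was -0.58 (adjusted p = 0.0489), so that 1 library decides whether either passes. In that setting 387 of all tested genes passed, or 3.59%, against 1.22% with all libraries. For 6 of 8 members (Acta1, Actc1, Acta2, Mylpf, Myl1 and Myl4) construct 7 replicate 2 exceeded replicates 1 and 3, and for Myl2 and Myl3 it lay below both. Among all tested genes, 34.2% were highest and 35.0% lowest of the 3 in that library.

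The genes whose values moved most like each member over the 9 libraries, by Pearson correlation of log2(FPKM + 1), are a description of these 9 libraries, which share depth and scaling, and say nothing of shared control. Myl4 was most like Tmem8c (r = 0.99), the table's older symbol for myomaker, which fuses myoblasts, and like Tnnt2 (r = 0.98), cardiac troponin T, also made in embryonic skeletal muscle. Tmem8c read 0.478, 7.47 and 1.34 FPKM with construct 7, 6.18, 4.14 and 4.60 FPKM with construct 5, and 0.903, 2.91 and 2.61 FPKM in controls. Its high and low libraries were those of Myl4. Mylpf was most like Acta2 (r = 0.92) and Myl1 (r = 0.91), and Myl3 was most like Dusp26 (r = 0.95) and Myl10 (r = 0.91). Acta1 was most like Lrp3 (r = 0.91) and Neurl2 (r = 0.90), Actc1 like Neurl2 (r = 0.91), Myl2 like Rusc1 (r = 0.96) and Myl1 like Zdhhc4 (r = 0.93).

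Other genes of the same apparatus were followed as lists. Of 15 tested fast-fibre genes, Pgam2, muscle phosphoglycerate mutase, fell with construct 5 (-0.42, SE 0.101, adjusted p = 0.0494) and none rose or fell with construct 7. Among all tested genes 0.602% fell and 4.67% rose with construct 5. The fast troponins Tnni2 and Tnnt3 stood at -0.27 (adjusted p = 0.0949) and -0.24 (adjusted p = 0.122) with construct 5. The median over the fast list was -0.10 with construct 7 and -0.06 with construct 5, both below the medians of all genes given above. Of the 15, 6 lay below every control and 1 above with construct 5, against 5.19% and 33.0% of all tested genes. With construct 7 these were 5 and 1, against 6.26% and 10.5%. The 5 below with construct 7 were Tnni2, Tnnt3, Tnnc2, Tpm1 and Pgam2. They lay below every control with construct 5 too, as Acta1 did. Over all tested genes 1.45% lay below with both. All of them but Tpm1 were named for a small p against control, so their place below the controls adds no separate support. Of 12 tested embryonic and regeneration genes 0 passed limma's test with either construct. An unadjusted p under 0.05 was reached by 2 with construct 7 and 9 with construct 5, against 9.47% and 31.9% of all tested genes. The median was 0.27 with construct 7 and 0.76 with construct 5, and 11 of 12 lay above every control with construct 5, against the 33.0% of all genes. Myog, the myogenin gene, stood at 1.02 (adjusted p = 0.0589), and Myf6, a muscle transcription factor, at 0.72 (adjusted p = 0.0627). In construct 7 replicate 2 all 12 exceeded the other 2 libraries of the group, as Myl4 did.

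Of 11 tested slow-fibre genes 0 passed limma's test with either construct. At an unadjusted p under 0.05 were 0 with construct 7 and 2 with construct 5, against 9.47% and 31.9% of all tested genes. Construct 5 replicate 1, the library with the lowest Myl3, was the lowest of the 9 for 2 of the 11: Ankrd2 read 24.1 FPKM there and between 37.1 and 116 FPKM in the others, and Myoz2 read 7.35 FPKM there and between 8.29 and 14.8 FPKM in the others. Tnni1, slow troponin I, was not low in it: it read 2.30, 24.3 and 5.14 FPKM with construct 7, 23.2, 16.4 and 17.2 FPKM with construct 5, and 6.11, 9.04 and 6.89 FPKM in controls. Myl10, another light chain gene, was lowest there too, at 0.515 FPKM in construct 5 replicate 1 and between 2.58 and 8.13 FPKM in the other 8 libraries.

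Regulators and partners of the members were mostly within the threshold. Of 19 tested serum response factor and MEF2 regulators, Elk4, a partner of serum response factor, and Mef2a rose with construct 5 by 0.34 and 0.35 (adjusted p = 0.0471 and 0.0476). Of 8 tested cytoplasmic actins and non-sarcomeric light chains, Actg1, gamma cytoplasmic actin, rose by 0.42 (adjusted p = 0.0471), and of 24 tested thin filament genes Cap2, an actin-turnover protein, rose by 0.42 (adjusted p = 0.0409). Over all tested genes 4.67% rose with construct 5. On the median-ratio scale these 4 genes no longer passed (adjusted p = 0.126 to 0.232), while Pgam2 did (-0.61, adjusted p = 0.0453). None of 18 actin and myosin folding genes and none of 9 light chain kinase and phosphatase genes passed limma's test with either construct. At an unadjusted p under 0.05 were 5 folding and 1 kinase or phosphatase genes with construct 7, against 9.47% of all tested genes. With construct 5 they were 6 and 2, against 31.9%, with Hsp90aa1, a chaperone, at 0.85 (adjusted p = 0.0503). Above every control lay 10 of 18 folding genes with construct 5 and 5 with construct 7, against 33.0% and 10.5% of all tested genes. Of the 9 kinase and phosphatase genes, 2 and 1 lay there. The median of the folding genes with construct 5 was 0.157, beside 0.130 over all tested genes. After median-ratio scaling these medians were -0.021 and -0.019. With construct 7 they were 0.093 and 0.020 on the deposited scale, and 0.071 and 0.0022 after that scaling. The summed levels of fibroblast and macrophage markers were highest with construct 5. The 9 fibroblast genes summed to 296 to 332 FPKM with construct 7, 490 to 762 with construct 5 and 379 to 448 in controls, with 1 of 9 called with construct 5, Col1a2. The 8 macrophage genes summed to 95.8 to 144 FPKM with construct 7, 195 to 352 with construct 5 and 118 to 175 in controls. Of these 8, 2 were called with construct 5, Lgals3 and Lyz2. Among all tested genes 5.27% were called with construct 5. On the deposited scale Col1a2 stood at 0.61, Lgals3 at 1.36 and Lyz2 at 0.90, and after median-ratio scaling at 0.43 (adjusted p = 0.113), 1.19 (adjusted p = 0.0663) and 0.72 (adjusted p = 0.0830). Between constructs 5 of 9 fibroblast genes (Col1a1, Col1a2, Col3a1, Fn1 and Postn) were called lower with construct 7 on the deposited scale. So was 1 of 8 macrophage genes (Lyz2), against 1.07% of all tested genes. With construct 7, 5 of 9 fibroblast and 1 of 8 macrophage genes lay below every control, against 6.26%. No marker of either list was at 0 in any library. Their part in the values of Myl4 and the other members was not tested. Of 5 satellite cell and 8 endothelial genes tested 0 passed. At an unadjusted p under 0.05 were 2 and 0 with construct 5 and none with construct 7, against 31.9% and 9.47% of all tested genes. Of 15 serum response factor targets Actg1 alone passed, with construct 5, where 5.27% of all tested genes passed. It is the same gene as counted above among the cytoplasmic actins. The 11 cardiac markers summed to 13.5 to 99.9 FPKM with construct 7, 66.2 to 119 with construct 5 and 20.8 to 53.2 in controls. Only Ankrd1 and Tnnt2 reached the 1 FPKM filter. Both lay above every control with construct 5, as did 33.0% of all tested genes, and neither passed limma's test. Ankrd1 read 78.3, 54.1 and 108 FPKM with construct 5, against 47.9, 38.4 and 13.8 FPKM in controls (1.35, adjusted p = 0.215). Tnnt2, also one of the embryonic genes counted above, stood at 0.92 (adjusted p = 0.162). Among the other 9 the atrial light chain Myl7 was listed at 0 in all 9 libraries, and Myh6, a cardiac myosin heavy chain, read at most 0.661 FPKM.

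**Figure D5:**
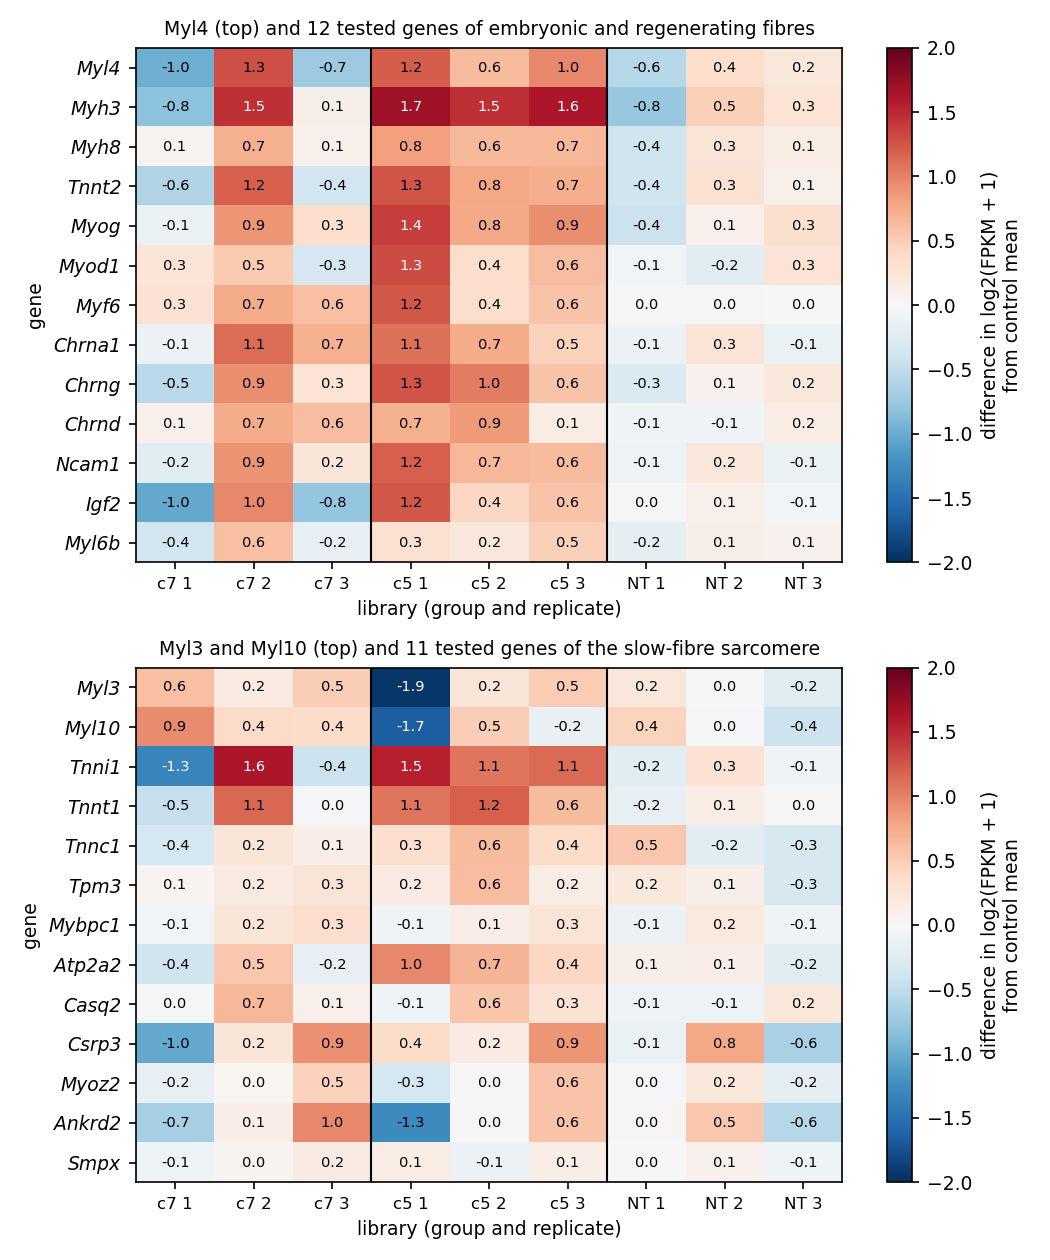
Difference in log2(FPKM + 1) from the mean of the 3 controls for construct 7 (c7), construct 5 (c5) and non-targeting (NT) replicates 1 to 3, with Myl4 above the 12 tested embryonic genes and Myl3 and Myl10 above the 11 tested slow-fibre genes. All 12 embryonic genes are higher in c7 replicate 2 than in c7 replicates 1 and 3, and Myl3 and Myl10 are both lowest in c5 replicate 1.

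Sequence overlap between these genes is small. Each member was compared only with the other members and with Actg2, Actb and Actg1. Overlap with any other gene or pseudogene was not tested. Of 50-base windows in the Acta1 transcript, 1.83% also occur in a transcript of the genes compared, all in Actb or Actg1. Of those of Acta2, 0.326% occur in Actg1. The other 6 members shared none with the genes compared, and no member shared a 100-base window with them. How reads that match more than one gene were counted is not given in the sources used here.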

How the data were processed

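The deposited table of the authors gives FPKM for 23231 genes in 9 libraries, 3 for each of 3 groups taken from the sample titles. Per the submitters' processing notes the tools included BWA, STAR and HTSeq and the genome build was mm9. Their versions, roles and settings, and the counting of shared reads, are not given in the sources used here. Genes with few reads take FPKM values in steps of 1 read, which gave the depth of each library, using GENCODE M21 exon lengths for 21323 gene identifiers, and ran from 29312121 to 45563543 reads. Coordinates of the table are not given here, because the annotation used (GENCODE M21, GRCm38) is of another build.

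Genes with a mean of at least 1 FPKM over all libraries (10794) were tested on log2(FPKM + 1) over all 9 libraries, without covariates, in limma (version 3.58.1, under R version 4.3.3), with its trended eBayes step. The Benjamini-Hochberg adjusted p, over all tested genes of a contrast, was called under 0.05. Folds are understated for low genes on that scale. Contrasts were each construct against control, the mean of both against control, and construct 7 against construct 5. The fit was checked on simulated data with changed genes of known size. Shares within a library were computed from FPKM with no test. Genes most like a member were the 3 with the highest Pearson correlation over the 9 libraries, leaving out unnamed models. From each gene list, up to 4 genes with the smallest p against control and the most abundant gene could be named with values. Genes passing the test could be named too. Tpm1, Myh6, Myl7, Myl10, Ankrd2 and Myoz2 were named after their values were seen. The genes and lists were chosen with earlier results of these data known. Alternatives were a pseudocount of 0.1, no filter, median-ratio scaling, totals of 1000000, only the 6 libraries compared, a replicate block and each library left out. Deviations of same-numbered libraries from their group means correlated at -0.364 to 0.313. The labels do not say whether the numbers pair libraries, and they were not taken to. The other steps ran in Python (3.11.15) with the packages pandas (2.3.3) and numpy (2.4.6), and matplotlib (3.10.9) made the plots.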

Additional observations from a re-analysis of the deposited data

How the results depend on the processing

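Of 472 member differences recomputed under the alternatives, 449 kept their direction and side of the threshold, 21 changed sign and 2 crossed it. The 2 were Acta2 (-0.58, adjusted p = 0.0489) and Myl4 (-1.78, adjusted p = 0.0189) between construct 7 and construct 5 without construct 7 replicate 2, where 387 genes (3.59% of those tested) were called in all. The number of members called between constructs therefore ran from 0 to 2 when a library was left out. It was 0 in every other alternative and comparison. The sign of the Myl3 difference for the mean of both constructs changed with a pseudocount of 0.1 (-0.0011) and median-ratio scaling (-0.087), and ran from -0.22 to 0.40 with a library left out. Between constructs, Mylpf was 0.12 and Myl1 0.034 after median-ratio scaling. With a library left out, the other differences that changed sign were Myl3 (-0.85 to 0.38), Actc1 (-0.60 to 0.093) and Myl1 (-0.11 to 0.026) with construct 5, Myl2 (-0.16 to 0.56) and Myl4 (-0.85 to 0.28) with construct 7, and Mylpf between constructs (-0.23 to 0.065). The cause was not tested.

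Counts of all genes called moved more. With construct 7 they were 0 with no filter, 3 with median-ratio scaling, 2 with only its 6 libraries and 0 to 5 with a library left out, against 6. With construct 5 they were 316 with a pseudocount of 0.1, 5 with no filter, 197 with median-ratio scaling, 1024 with equal totals, 246 with only its 6 libraries and 1 to 581 with a library left out, against 569. For the mean of both they were 0 with no filter, 2 with equal totals and 0 to 7 with a library left out, against 1. Between constructs they were 10 with no filter, 23 with only its 6 libraries and 3 to 387 with a library left out, against 132. The replicate block uses a number that is not known to pair the libraries. Under it the counts were 11 with construct 5, 4 for the mean of both and 217 between constructs, and 0 members were called. Group means after median-ratio scaling moved by over 1 SD for Acta1 (16878 FPKM with construct 5 and 21023 in controls), Mylpf (12762 in controls) and Myl1 (6332 in controls).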
